A study of Mus musculus with 2 samples.

Results

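The cadherin and catenin genes considered here are Cdh2, Cdh4, Cdh13, Ctnna1, Ctnna2, Ctnna3, Ctnnd1 and Ctnnd2, taken by their symbols in the GENCODE M1 annotation of the mouse genome build mm9. They are 8 of 37273 annotated genes, of which 22367 are protein-coding, and 54 of the 22132 R-loop peaks in the list overlapped one of them by at least 1 bp. R-loops were mapped in primary neural stem/progenitor cells (NSPCs), which were cultured from the frontal brain of C57BL/6 mice at postnatal day 7. According to the methods of the study the cells had been exposed to aphidicolin, an inhibitor of replicative DNA polymerases that causes mild replication stress, although the sample labels name no treatment. In DRIP-seq, genomic DNA is cut with restriction enzymes, RNA:DNA hybrids are pulled down by the hybrid-binding antibody S9.6, and the DNA obtained in this way is sequenced. The one list analysed holds only positions, without strand, signal or read count. There was therefore no replicate error, the depth behind a peak is unknown, and no test between samples was possible, so all values below describe this list.

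Classical cadherins are transmembrane proteins that hold neighbouring cells together at adherens junctions by binding the same cadherin on the other cell. Their cytoplasmic tails bind β-catenin and p120-catenin, and β-catenin binds α-catenin, which connects the junction to actin. In the developing brain, N-cadherin junctions hold neural progenitors together at the ventricular surface. An R-loop is an RNA:DNA hybrid with a displaced DNA strand, and it is favoured where the transcribed RNA is rich in G, that is, where the coding strand carries more G than C.

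The G-rich stretches inside the peaks are shown first, because they ranged from simple repeats to runs of G. For each gene printed, the line holds the 60 bases of its widest peak in which G exceeded C by most, read from mm9 and written 5′ to 3′ on the coding strand, with runs of at least 3 G in capitals. None of these windows touches an annotated exon, and TSS stands for the transcription start site at the 5′ end of the gene.
Cdh4 (chr2:179187839-179187898, plus strand, intron): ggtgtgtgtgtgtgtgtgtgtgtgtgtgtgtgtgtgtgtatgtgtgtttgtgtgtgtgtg
Cdh13 (chr8:120807138-120807197, plus strand, upstream of the TSS): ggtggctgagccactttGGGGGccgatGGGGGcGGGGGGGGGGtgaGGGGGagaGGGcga
Ctnna2 (chr6:77787676-77787735, minus strand, intron): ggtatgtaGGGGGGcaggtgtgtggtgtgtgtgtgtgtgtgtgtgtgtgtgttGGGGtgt
Ctnna3 (chr10:63056281-63056340, plus strand, intron): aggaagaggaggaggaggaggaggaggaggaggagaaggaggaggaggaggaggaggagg
Ctnnd1 (chr2:84472242-84472301, minus strand, intron): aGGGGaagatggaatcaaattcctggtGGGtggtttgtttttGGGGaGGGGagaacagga
Ctnnd2 (chr15:30169185-30169244, plus strand, intron): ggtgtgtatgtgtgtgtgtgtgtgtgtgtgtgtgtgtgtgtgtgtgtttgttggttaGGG
The Cdh13 window held 5 runs of at least 3 G, with 38 G and 8 C. The windows of Cdh4 and Ctnnd2 were almost pure repeats of GT, each with 29 G and 0 C, and held 0 and 1 such runs. The Ctnna3 window was a repeat of AGG with 38 G, 0 C and 0 runs of 3 G. Ctnna2 combined a GT repeat with 2 runs of G, and the Ctnnd1 window, with 4 runs, was not a simple repeat. The windows were chosen for their G and do not describe whole peaks, since the widest peak of Cdh4, with 671 G and 746 C, and that of Ctnnd1, with 253 G and 280 C, had more C than G on the coding strand.

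Strong asymmetry between the strands ran in both directions. GC skew was computed as (G − C)/(G + C) on the coding strand, so that a positive value means more G than C in the transcript. The following windows, chosen after their values were seen, come from further peaks that were among the 6 with the largest skew in the genes printed above. They hold the 60 bases in which the more frequent of G and C exceeded the other by most, with runs of at least 2 of that base in capitals.
Ctnna2 (chr6:77817438-77817497, minus strand, intron): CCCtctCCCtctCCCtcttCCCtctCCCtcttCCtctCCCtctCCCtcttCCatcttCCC
Cdh13 (chr8:121488187-121488246, plus strand, intron): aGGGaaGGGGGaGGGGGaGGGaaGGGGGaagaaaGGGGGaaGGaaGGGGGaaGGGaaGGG
Cdh13 (chr8:121587103-121587162, plus strand, intron): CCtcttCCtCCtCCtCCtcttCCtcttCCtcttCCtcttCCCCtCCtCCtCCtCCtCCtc
Ctnnd2 (chr15:30287174-30287233, plus strand, intron): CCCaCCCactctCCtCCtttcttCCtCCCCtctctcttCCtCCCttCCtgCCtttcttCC
The Ctnna2 peak that holds the first of these had 10 G and 232 C over 421 bp, a skew of -0.92, and only 4.75% of its coding-strand bases were A or G. Read on the template strand, it is therefore almost purely A and G. At the other end, the Ctnna3 peak with the AGG repeat had 417 G and 56 C over 841 bp, a skew of 0.76, and 88.1% of its bases were A or G.

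All 8 genes contained at least 1 peak, whereas 39.6% of all protein-coding genes did. Length has to be considered here, since 5 of the 8 genes span at least 300 kb and 68.2% of the 528 protein-coding genes of that length contained a peak. The 8 genes were also chosen with earlier results of these data known, and the study names Cdh13 and Ctnnd2 among its peak-rich long genes. The count of 8, and the ranks of Cdh13 and Ctnnd2 given below, are therefore not independent of that choice. The number of peaks varied from 1 to 23 within the family, a word used here for these 8 genes only. Cdh13 and Ctnnd2 together held 66.7% of the 54 peaks, and Cdh13 alone held 42.6%. Over the summed length of 5433 kb the peaks covered 80.3 kb, or 1.48%. Number of peaks and gene length were unrelated among the 8 genes, with a Spearman's rho of 0.02 that is given as a description.

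**Figure D1:**
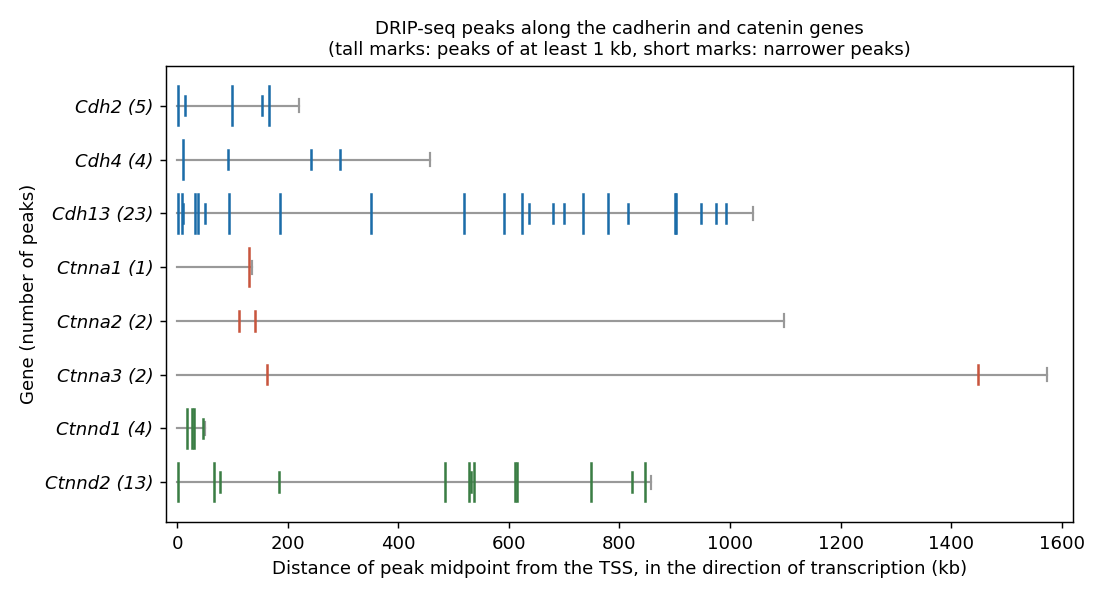
Positions of the 54 peaks along the 8 genes, drawn to scale from the TSS at 0 kb to the end of each gene (end mark), with the number of peaks in brackets; tall marks are peaks of at least 1 kb and short marks narrower ones. Cdh13 carried 23 peaks spread over most of its length, whereas Ctnna2 and Ctnna3, both longer, carried 2 narrow peaks each.

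Among the cadherins, Cdh2 encodes N-cadherin, the main classical cadherin of neural progenitors. The gene (ENSMUSG00000024304; chr18:16747386-16967755, minus strand) spans 220 kb. It held 5 peaks that covered 2.93% of its bases, or 2.27 peaks per 100 kb. Of the 470 genes within 20% of its length, 76 had more peaks and 377 had fewer. The first peak, at 16965082 to 16966736, started 1019 bp inside the gene, in intron 1, and its GC content of 58.6% was the highest of all 54 peaks, compared to 42.6% in the 5 kb on either side. The widest peak of Cdh2 spanned 1.97 kb in intron 6 and had a skew near 0 (0.01). Intron 2, which makes up 56.3% of the gene, held 2 peaks, and the last 52277 bp before the TES, which is the end of transcription, held none.

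Cdh4 encodes R-cadherin, another classical cadherin of the nervous system. The gene (ENSMUSG00000000305; chr2:179177136-179634078, plus strand) spans 457 kb. All 4 of its peaks lay in intron 2, which at 335 kb accounts for 73.4% of the gene. The widest peak, 2.94 kb from 179187392 to 179190326, was located 10256 bp downstream of the TSS and contained the GT repeat shown above. The other 3 peaks were narrow, with widths of 0.499, 0.449 and 0.207 kb. The last 161 kb of Cdh4 were free of peaks, yet the next peak began only 4216 bp beyond the TES. With 49.5% the gene had the highest GC content of the 8, but its 0.875 peaks per 100 kb were well below the 2.21 of Cdh13. For its length Cdh4 was not poor in peaks. Among the 207 genes within 20% of its length, 27 had more peaks and 170 had fewer. Peaks covered 0.895% of its bases, compared to a median of 0.125% in those genes.

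Cdh13 encodes T-cadherin, which is anchored in the membrane by a glycolipid and lacks the cytoplasmic tail that binds catenins in the other cadherins. The gene (ENSMUSG00000031841; chr8:120807633-121848821, plus strand) spans 1041 kb. None of the 56 other genes within 20% of its length had as many peaks, and their median was 2. The nearest of them in number of peaks was Ctnnd2 with 13, followed by Ntm, which encodes a neuronal adhesion protein, with 10 and Sox5, a transcription factor gene, with 9. Among the 528 protein-coding genes of at least 300 kb, 5 had more peaks than Cdh13, but 27 had more peaks per 100 kb and 28 had a larger share of their bases covered.

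Within Cdh13, the peaks were placed unevenly. Intron 1, 222 kb long, contained 8 peaks, and 6 of these had midpoints within 51.3 kb of the TSS. The longest stretch without a peak was 167 kb, from 121158848 to 121325713, which is 16.0% of the gene and the smallest such share in the family. From intron 4 to intron 10, peaks recurred at intervals of up to 82419 bp. Cdh13 also contained the 2 closest peaks of the family, at 121706248 to 121709090 and 121709092 to 121710447 in intron 7, which are separated by a single base. The list contains 305 neighbouring pairs with that spacing.

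Of the α-catenin genes, Ctnna1 encodes αE-catenin, the widely expressed form. The gene (ENSMUSG00000037815; chr18:35278542-35414427, plus strand) spans 136 kb. Its only peak was 3.90 kb wide, from 35405989 to 35409887, and covered coding exon 14 of 18. It thus lay 95.2% of the way along the gene, 4540 bp before the TES, and the first 127 kb contained none. The neighbourhood was different, since the 500 kb upstream of the TSS held 16 peaks and the 500 kb downstream of the TES held 7. A single peak was not a low count for the length of Ctnna1. Among the 885 genes within 20% of its length, 346 had more peaks and 333 had fewer.

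Ctnna2 encodes αN-catenin, the neural form, and Ctnna3 encodes αT-catenin, which is known mainly from heart muscle. They are the longest genes of the family, with 1098 and 1574 kb, and each contained only 2 peaks, which covered 0.0835% and 0.0829% of their bases. In Ctnna2 (ENSMUSG00000063063; chr6:76831631-77929693, minus strand) the peaks, in introns 2 and 3, were 0.421 and 0.496 kb wide, and the following 956 kb, or 87.1% of the gene, held none. In Ctnna3 (ENSMUSG00000060843; chr10:62892846-64466415, plus strand) the peaks, in introns 5 and 15, were 0.841 and 0.463 kb wide and were separated by 1284 kb. No peak of either gene reached 1 kb. For their length these counts were not low, since the median was 2 peaks among the 51 genes of similar length to Ctnna2 and 1.5 among the 14 of similar length to Ctnna3.

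Each α-catenin gene harbours a gene for a leucine-rich synaptic adhesion protein on the opposite strand. Lrrtm2 lies inside Ctnna1, Lrrtm1 inside Ctnna2 and Lrrtm3 inside Ctnna3. None of the 3 contained a peak, and the nearest peaks were 31311, 579816 and 334763 bp away.

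Ctnnd1 and Ctnnd2 belong to the p120 branch of the armadillo family, whose products bind the part of the cadherin tail next to the membrane. Ctnnd1 encodes p120-catenin itself, which keeps cadherins at the cell surface. The gene (ENSMUSG00000034101; chr2:84440228-84490922, minus strand), 50.7 kb, is the shortest of the 8. Its 4 peaks gave it the highest density of the 8 genes, 7.89 peaks per 100 kb, and the largest share of bases covered among them, 7.86%. Of the 1805 genes of similar length, 67 had more peaks. Coding sequence was reached by 3 of the 4 peaks, namely those at 84463551 to 84464571 over exon 3, at 84459769 to 84460903 over exon 6 and at 84443073 to 84443735 over exon 20 of 21. The midpoints of the last 2 lay in exons, as for no other peak of the family. The widest peak, 1.17 kb, lay in intron 1, and the first 17.9 kb of the gene were free of peaks.

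Ctnnd2 encodes δ-catenin, a relative of p120-catenin found mainly in neural cells. The gene (ENSMUSG00000022240; chr15:30102348-30959066, plus strand) spans 857 kb. Of the 62 genes of similar length, only 2 had more than its 13 peaks. The genes nearest to it in number of peaks were Zbtb20, which encodes a zinc-finger protein, and Ntm, with 10 each, and Exoc4, which encodes a subunit of the exocyst, with 16. The first peak, at 30102737 to 30103946, started 389 bp downstream of the TSS inside exon 1, reached coding sequence and had a GC content of 57.9%. A stretch of 299 kb without a peak followed the fourth peak, and the remaining 9 peaks had their midpoints 484 kb or more from the TSS. The peak at 30850382 to 30851819 covered coding exons 16 and 17. The widest peak, 3.50 kb from 30167554 to 30171051 in intron 1, is the one that holds the long GT repeat printed above.

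**Figure D2:**
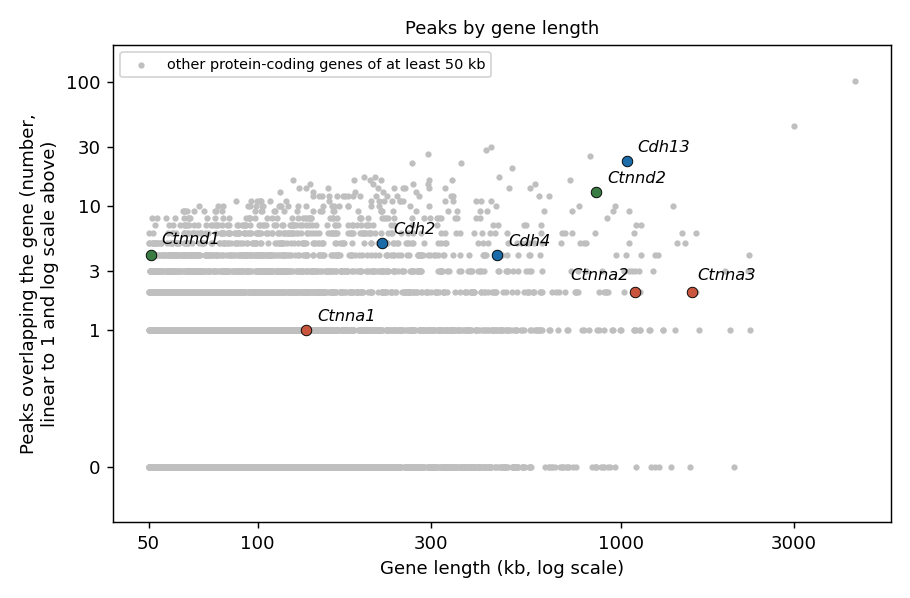
Number of peaks per gene against gene length in kb for protein-coding genes of at least 50 kb, with a log scale on the x axis and, above 1, on the y axis; the 8 named genes are coloured and all others grey. Cdh13 with 23 and Ctnnd2 with 13 peaks sat at the upper edge for their length, whereas Ctnna2 and Ctnna3 lay among the other genes of their length.

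Few of the 8 genes had a peak over an annotated end, about as many as the shares over all protein-coding genes would give. The annotated TSS lay in a peak in 1 of the 8 genes, Cdh13, compared to 14.9% of all protein-coding genes, and the TES lay in a peak in 0 of 8, compared to 10.9%. With 8 genes, counts of 1 and 0 lie close to what these shares would give. A peak within 2 kb of the TSS was found for Cdh13, Ctnnd2 and Cdh2, that is 3 of 8, and for 22.2% of protein-coding genes. The Cdh13 peak spans 4.69 kb from 120806422 to 120811114, is the widest of the 54, includes all of exon 1 and has a GC content of 54.1% with 129 CpG. In the remaining genes the peak nearest to the TSS was 10256 bp (Cdh4), 17859 bp (Ctnnd1), 26188 bp (Ctnna2), 49493 bp (Ctnna3) and 127447 bp (Ctnna1) away.

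A CpG-rich sequence just upstream of the TSS was not accompanied by a peak over the TSS in several of the genes. The 200 bases before the TSS held 32 CpG in Cdh2, 22 in Cdh4, 26 in Ctnna1, 25 in Ctnna2, 31 in Ctnna3 and 22 in Ctnnd2. The median was 7 CpG over all protein-coding genes. None of these 6 genes had a peak over the TSS. The share was 14.9% for all protein-coding genes, and it was not computed for those with as many CpG. In Ctnnd2 and Cdh2 a peak began 389 and 1019 bp inside the gene. Cdh13, which has a peak over its TSS, is not among the genes counted here, so no contrast was made. Ctnnd1 was the other extreme with 3 CpG and 37.5% GC, compared to a median of 55.5% GC. The window of Ctnna3 is given on the coding strand of mm9 with every CG in capitals, and ends at the base before the TSS.
Ctnna3 (chr10:62892646-62892845, plus strand): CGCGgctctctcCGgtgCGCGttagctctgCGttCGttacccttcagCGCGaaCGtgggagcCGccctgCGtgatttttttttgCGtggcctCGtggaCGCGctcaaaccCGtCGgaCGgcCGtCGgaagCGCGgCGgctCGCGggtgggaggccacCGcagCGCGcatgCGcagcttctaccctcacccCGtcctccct

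The midpoint of 52 peaks (96.3%) lay in an intron and that of 2 in an exon, where introns make up 99.3% of the bases of the 8 genes. In addition, 8 peaks overlapped an exon of any transcript and 7 overlapped a coding exon. Apart from the peaks described above, the exon met was a non-coding one, in a processed transcript of Cdh13 at 120839747 to 120841985. No peak overlapped another annotated gene. First introns contributed 11.4% of the intronic bases and contained 14 of the 52 intronic midpoints, or 26.9%. These pooled shares mix genes with many and few peaks. Cdh13 held 8 of the 14 and Ctnnd2 held 3, and intron 1 makes up 21.3% and 18.5% of these genes. Cdh2 held 2 and Ctnnd1 held 1, with 15.3% and 47.7%. In the long genes Ctnna2 and Ctnna3, intron 1 makes up 5.91% and 4.69% and held 0. Of the 138 introns, 27 held a midpoint, and of the 28 introns of at least 50 kb, 15 did. The largest introns without one were intron 8 of Ctnna2, which spans 461 kb, and intron 7 of Ctnna3, which spans 398 kb.

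When each gene was divided into 5 segments of equal length, the first segment held 17 of the 54 midpoints (31.5%, exact binomial 95% interval 19.5 to 45.6%, which covers counting error only), the second 4, the third 7, the fourth 15 and the last 11. In the other protein-coding genes of at least 300 kb, 1385 midpoints were spread over the same segments as 26.0, 14.7, 16.0, 17.0 and 26.4%. The second segment was the poorest in both. The fourth segment held 27.8% in the family, 15 midpoints of which 6 lay in Cdh13 and 5 in Ctnnd2.

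Some of the genes differed from their surroundings in the density of peaks. Density inside the gene was 22.7 per Mb in Cdh2 against 2 per Mb in the 500 kb on each side, counted by peak midpoint. It was 78.9 against 7 per Mb in Ctnnd1, and 15.2 against 10 in Ctnnd2. With both sides pooled, Cdh13 was close to its neighbourhood in this respect, with 22.1 against 21 per Mb. Density was lower inside the gene for Cdh4, with 8.75 against 15, for Ctnna1, with 7.36 against 23, and for Ctnna3, with 1.27 against 11. In Ctnna2, 1.82 against 3 per Mb rested on 2 and 3 peaks. The inside densities of Ctnna1 and Ctnna3 likewise rested on 1 and 2 peaks, counts that were not low for the length of these genes. That of Ctnnd1 rested on 4 peaks in 50.7 kb. The values outside pool sides that were unlike in several genes. The 500 kb upstream and downstream held 2 and 13 peaks for Cdh4, 5 and 16 for Cdh13 and 2 and 8 for Ctnnd2. For Ctnna2 they held 3 and 0. In these genes the outcome of the comparison therefore depends on the side taken.

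**Figure D3:**
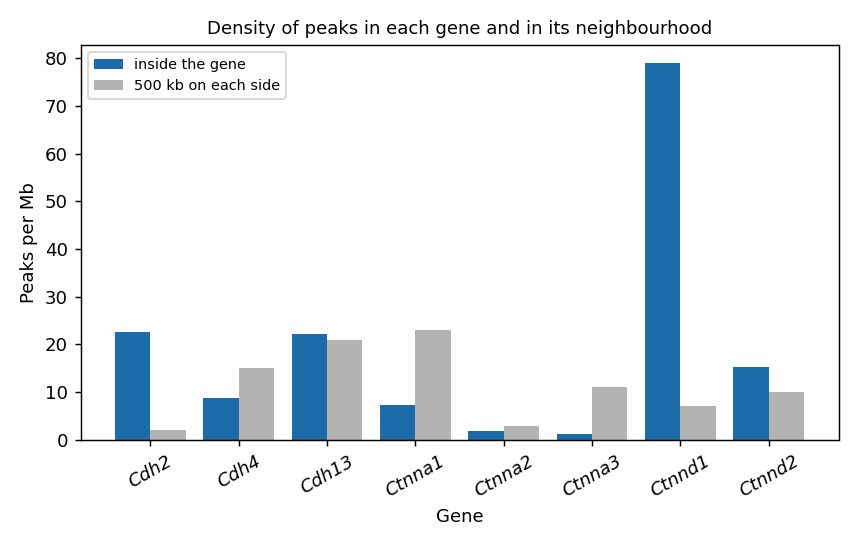
Peaks per Mb inside each gene (blue) and in the 500 kb on each side of it (grey, both sides pooled), with genes on the x axis. Ctnnd1, with 4 peaks, had 78.9 per Mb inside against 7 outside and Cdh2, with 5 peaks, 22.7 against 2. Ctnna1, with 1 peak, had 7.36 inside against 23 outside.

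The peaks had a median width of 1.16 kb, from 0.115 to 4.69 kb, compared to 1.32 kb over the whole list and 0.921 kb in the other protein-coding genes of at least 300 kb. Their GC content ranged from 39.7 to 58.6% with a median of 46.8%, compared to 47.4% in the other genes of at least 300 kb and 49.8% in all other protein-coding genes. Of the 54 peaks, 40 exceeded the GC content of their gene and 38 that of the 5 kb on each side, with a median difference of 2.29 percentage points from the latter. Over the 528 genes of at least 300 kb, GC content and peaks per 100 kb had a Spearman's rho of 0.52, and over the 8 genes rho was 0.62. Both are descriptions, since all genes share the one list. Ctnna2 and Ctnna3, the genes with the fewest peaks per 100 kb, also had the lowest GC content, 39.1 and 39.4%.

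More G than C on the coding strand was found in 35 of the 54 peaks, or 64.8% (exact binomial 95% interval 50.6 to 77.3%). The interval treats the peaks as independent, although 66.7% of them lay in Cdh13 and Ctnnd2. The share was 64.1% for peaks in all other protein-coding genes and 55.5% in those of at least 300 kb. The median skew was only 0.04. The size of the skew went with the width of the peak. Of the 23 peaks under 1 kb, 12 (52.2%) had a skew of at least 0.3 in either direction, compared to 2 of the 31 wider peaks (6.45%). The same split was seen in the other genes of at least 300 kb, with 56.0% of 738 narrow and 7.72% of 674 wide peaks, so it is not particular to the family. Of the 14 strongly skewed peaks, 10 had an excess of G and 4 an excess of C. Without Cdh13, 7 strongly skewed peaks remained. The directions were not counted in the other genes, so no bias of these 8 genes can be read from them.

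**Figure D4:**
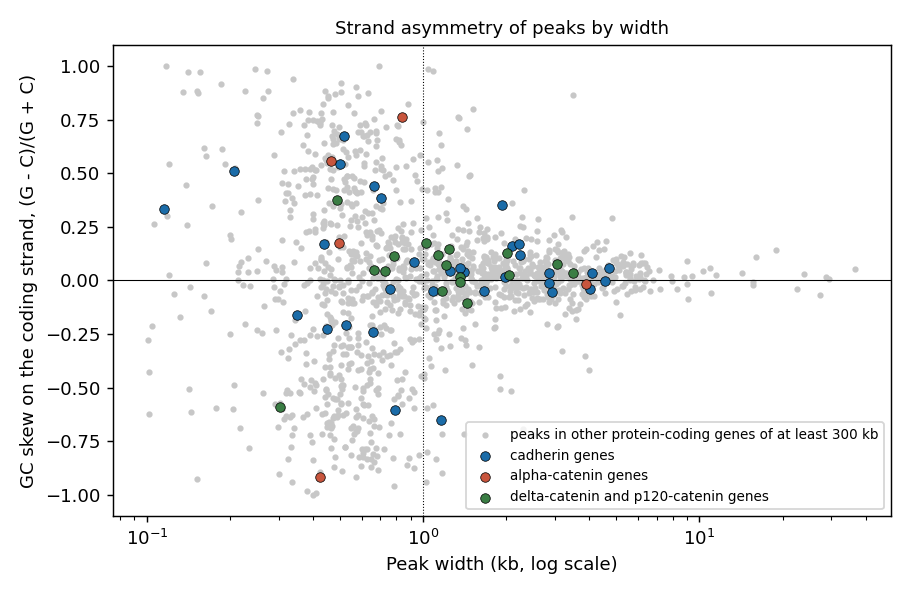
GC skew on the coding strand against peak width in kb (log scale) for the 54 peaks, coloured by type of gene, and for peaks in other protein-coding genes of at least 300 kb in grey; the dotted line marks 1 kb. Skew was widely scattered in narrow peaks, from -0.92 in Ctnna2 to 0.76 in Ctnna3, and stayed close to 0 in nearly all wider ones.

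Simple repeats such as those printed above were common in the peaks. A perfect tandem repeat of at least 30 bases, with a unit of 1 to 6 bases, occurred in 11 of the 23 narrow peaks (47.8%) and in 14 of the 31 wider ones (45.2%). In the other genes of at least 300 kb the shares were 40.9 and 46.4%. Such repeats made up 19.4 bases per kb inside the peaks of the 8 genes and 12.1 bases per kb in the remainder of the genes. The density was higher inside peaks in 6 of the 8 genes, but this rested on 1 repeat each in Ctnna1 and Ctnna3 and on 3 in Cdh2. No repeat of that length lay in the peaks of Ctnna2 and Ctnnd1, although the GT repeat in a Ctnna2 peak reached 28 bases. The genes contained 1370 repeats of at least 30 bases, and 35 of them met a peak. Among these were 18 of 292 in Cdh13, 8 of 174 in Ctnnd2, 4 of 106 in Cdh4 and 1 of 408 in Ctnna3. The longest repeat in a peak was one of 77 bases in Cdh13 with the unit GAAGG, in the peak at 121541333 to 121543561. The study's methods name uniquely mapped reads for signal densities and tracks, and whether the peaks were called on such reads alone is not given in the sources used here. The part of read placement in these peaks was not tested.

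Because the DNA was cut with 5 restriction enzymes before the pulldown, a recovered fragment can reach beyond the hybrid it carries. A recognition site was found within 100 bp of 27 (25%) of the 108 peak edges, compared to 30.4% of all bases of the 8 genes. Further, 39 of the 54 peaks contained no site at all. The fragments met by a peak together spanned a median of 2.50 kb. Most fragments of these genes were shorter than that, with medians per gene from 0.312 kb in Ctnna2 to 0.523 kb in Cdh4. Whether peaks were called more readily in long fragments was not tested.

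The wider cadherin–catenin system, a list of 33 relatives, was searched in the same way. A peak was found in 15 of them (45.5%), with 51 peaks in all. The share was 39.6% over all protein-coding genes, but for protein-coding genes within 20% of the length of each relative it averaged 56.8%. Ctnnb1, the gene for β-catenin, contained 3 peaks over 39.2% of its 31.3 kb, and Jup, the gene for plakoglobin, 1 peak over its TES. None of the 3 other type I cadherins Cdh1, Cdh3 and Cdh15 contained a peak. Of the 13 type II cadherin genes, 4 did (30.8%, compared to 60.6% of genes of similar length). These were Cdh22 with 6 peaks, Cdh20 with 5, and Cdh24 and Cdh18 with 2 each, and the TSS lay in a peak in all but Cdh18. Cdh8 and Cdh12 span 392 and 478 kb and contained 0 peaks.

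Among the junction partners, 7 of 8 genes contained a peak (87.5%, compared to 57.2% of genes of similar length). Pvrl1, which encodes nectin-1, an immunoglobulin-type adhesion protein, held 9 peaks over 26.6% of its bases. Lima1, which encodes an actin-binding protein linked to α-catenin, held 5. Tjp1, the gene for the junctional scaffold ZO-1, and Actn4, the gene for the actin cross-linker α-actinin-4, held 4 each, and Mllt4, the gene for afadin, held 3. Pvrl3 and Pvrl2, which encode further nectins, met 2 and 1, and Actn1 held 0. The Pvrl2 peak, 6.11 kb wide, covered only 0.380% of the gene, at its TES. Counted by peak midpoint, 14 of the 33 relatives had a peak. Of the other armadillo relatives, Pkp4 had 2 peaks and Arvcf, Pkp1, Pkp2 and Pkp3 had 0. Vcl, which encodes the α-catenin relative vinculin, had 2 peaks with both the TSS and the TES in a peak, and Ctnnal1 had 0.

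A peak list holds no expression, so the cell type can only be viewed through the presence of peaks. Of 8 neural progenitor genes, 6 contained a peak and 5 had the TSS in one, including Nes and Sox2. Pax6 and Fabp7 had 0 peaks. Of 6 genes that mark other lineages, 1 contained a peak, the endothelial gene Pecam1. For comparison, 39.6% of all protein-coding genes contained a peak and 14.9% had the TSS in one.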

How the data were processed

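DNA of primary NSPCs from C57BL/6 mice at postnatal day 7 was analysed by DRIP-seq, with pooled DRIP reactions for each biological replicate. The input library is not analysed here. The authors trimmed the reads with Trim Galore 0.6.6 (per the submitters' processing notes), aligned them to mm9, filtered out duplicates and used a hidden Markov model to find peaks. The authors deposited 1 peak list whose columns hold positions in base pairs and no count, signal or score. The rule for combining replicates is not given in the sources used here, and the depth is unknown.

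Starts were read as 0-based and printed as 1-based positions. Peaks were compared with GENCODE M1 genes and mm9 sequence at an overlap of at least 1 bp. Introns and exons are those of a representative protein-coding transcript, and genes of similar length are protein-coding genes within 20% of it. No test was made, since 1 list holds no replicates, and intervals are exact binomial ones that treat peaks as independent. The sequence upstream of some genes is not reported here. The members, gene lists and limits were chosen with earlier results of these data known.

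The peaks described singly were those over a TSS, TES or coding exon, the widest of each gene, and the 2 nearest to each other, and others were chosen after their values were seen. The rule for relatives was to name those with 3 or more peaks and always Ctnnb1 and Jup, and the other relatives named were added after their values were seen, and the genes most like Cdh13 and Ctnnd2 were the 3 of similar length with the nearest number of peaks. As alternatives, peaks under 1 kb were left out, peaks closer than 1 kb were merged, midpoints replaced overlap, 2 kb were added to each side of a gene, the longest transcript was used, a peak within 1 kb of a gene end was accepted, and Cdh13 or peaks over exons were left out. Tandem repeats, with limits of 20 and 50 bases, were added after seeing the data. Overlap counting was tested on simulated data, with 100% of 200 genes recovered. Python 3.11.15 was used with numpy 2.4.6, scipy 1.17.1 and, for drawing, matplotlib 3.10.9.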

Additional observations from a re-analysis of the deposited data

How the results depend on the processing

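With peaks of at least 1 kb alone, the 8 genes held 31 peaks instead of 54, and 6 of the 8 genes still had one. Ctnna2 and Ctnna3 then had 0, Cdh4 had 1, Cdh2 had 3 and Cdh13 had 14. When a peak within 1 kb of the TSS was accepted, 2 genes had one, Cdh13 and Ctnnd2. Of the 40 values for single genes, 35 stayed within 1.5 times the reported count and 5 moved, all of them with the narrow peaks removed. The share of peaks in the first of 5 gene segments was 29.0% without Cdh13, and the share with more G than C was 64.5%. A tandem repeat of at least 20 bases occurred in 65.2% of narrow and 58.1% of wider peaks, and one of at least 50 bases in 8.70 and 12.9%, compared to 14.1% of narrow and 20% of wider peaks in the other genes of at least 300 kb. At 50 bases the shares thus fell below those of the other genes, and without Cdh13 the share over all peaks fell from 11.1 to 3.23%. The list holds no depth, so a gene without peaks in a stretch may have R-loops below what the caller accepted. No paired analysis was possible because 1 list without replicates was analysed.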

Other observations

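Of the 61 annotated transcript starts of the 8 genes, 11 lay within 2 kb of a peak, and these belonged to 3 genes, Cdh2, Cdh13 and Ctnnd2. Many starts are not separate sites, since several of Cdh13 lie in the same peak and both of Ctnnd2 share a position. The count therefore follows the number of annotated transcripts, and no share over the starts of all genes was computed. By gene, 22.2% of protein-coding genes had a peak within 2 kb of the TSS. The retained-intron transcript Cdh2-002 starts 235 bp from the first peak of Cdh2, whereas the protein-coding transcript Cdh2-003 starts 14819 bp from a peak. Both processed transcripts of Cdh13 start within 2 kb of a peak, Cdh13-002 at 1434 bp and Cdh13-007 at 1385 bp, and another protein-coding transcript of the gene starts 5395 bp away. In Ctnnd1, which has 30 annotated transcripts, the nearest start lay 5199 bp from a peak.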
